A study of Mus musculus with 16 samples.

Results

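The 9 transcription factors described here are genes that establish or maintain the identity of microglia, the resident macrophages of the brain: Spi1, Sall1, Irf8, Runx1, Mef2a, Mef2c, Bhlhe40, Bhlhe41 and Cebpb. They were taken by gene symbol from the deposited RNA-seq table, and all 9 were present among its 17951 genes. Mouse brain microglia were compared in 3 groups, and all of the mice had received Methoxy-X04, a dye that enters the brain and binds amyloid. The wild-type group (WT, n = 7) was labelled as negative for the dye and as 2 months old. The transgenic groups came from 5xFAD mice (TG), a transgenic model of brain amyloid driven by the neuronal Thy1 promoter, and were labelled as 6 months old. Their microglia had been sorted into cells without the dye (TG Me-X04-, n = 5) and cells that had taken it up (TG Me-X04+, n = 4). The labels gave the strain as 5xFAD for every mouse, WT included, and named CD11b and CD45 as the sorting markers, and the study's methods added CX3CR1. By these labels age and genotype cannot be told apart in any comparison with WT, although the study's methods give other and closer ages. Same-numbered libraries of the TG populations carried a shared animal label, while the WT mice were other animals. Differences between the TG populations are given throughout as TG Me-X04+ minus TG Me-X04-. The samples are bulk RNA of sorted cells, in which fewer cells expressing a gene and less RNA per cell cannot be told apart.

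PU.1, the product of Spi1, is the ETS-family factor without which macrophages and microglia do not form, and it binds most enhancers of these cells together with partners. IRF8 is an interferon regulatory factor that binds DNA jointly with PU.1, RUNX1 acts in early blood and microglial development, and the MEF2 factors, MEF2A and MEF2C, bind many microglial enhancers. SALL1 is a zinc-finger factor that within the brain marks microglia and restrains inflammatory and phagocytic genes, BHLHE40 and BHLHE41 are closely related basic helix-loop-helix repressors that bind E-boxes, and C/EBPβ, the product of Cebpb, is a leucine-zipper factor of inflammatory activation.

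The start regions of a pair of members are shown as examples of members whose window holds the binding letters of their own protein family. RefSeq start regions (GRCm38.p6, 250 bases before to 50 after a start) were on hand for 7 of the 9 members, in 13 windows, with no entry for Spi1 and Bhlhe40. The first is that of Mef2a at chr7:67372809-67373108 on the minus strand, with the MEF2 site CTAAAAATAG in capitals, which begins at position -2 from the start. The second is that of Bhlhe41 at chr6:145865371-145865670 on the minus strand, with the E-box CACGTG in capitals, which begins at position -153 from the start.
Mef2a: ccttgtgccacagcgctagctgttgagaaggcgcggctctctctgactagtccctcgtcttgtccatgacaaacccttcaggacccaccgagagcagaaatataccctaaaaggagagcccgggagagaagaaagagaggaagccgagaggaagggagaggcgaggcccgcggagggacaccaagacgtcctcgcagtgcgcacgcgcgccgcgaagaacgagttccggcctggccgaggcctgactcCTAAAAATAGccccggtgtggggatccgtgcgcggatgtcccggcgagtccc
Bhlhe41: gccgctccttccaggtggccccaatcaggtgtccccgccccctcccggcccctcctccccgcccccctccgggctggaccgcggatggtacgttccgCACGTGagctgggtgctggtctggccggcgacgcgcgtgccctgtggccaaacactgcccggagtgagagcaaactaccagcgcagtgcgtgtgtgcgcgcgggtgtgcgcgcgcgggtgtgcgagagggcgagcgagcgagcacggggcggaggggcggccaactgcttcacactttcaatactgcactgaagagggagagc
MEF2 sites, searched on both strands, were found in 0.558% of the 32817 mouse start regions of that length, and CACGTG, which reads the same on both strands, in 7.15%. A Runx1 window, not shown, holds 2 matches to the RUNX letters TGTGGT, which are in 16.8% of the regions. The other Runx1 window holds no such match. No Mef2c window holds a MEF2 site, and the Cebpb window does not hold the C/EBP letters TTGCGCAA. These matches are descriptions of the letters, and no binding was measured here.

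The values are log2 RPKM, the log2 of reads per kilobase of gene scaled to library size, so levels can be compared between libraries. Between genes they also depend on the gene length used. For Mef2a this was 6283 bases, against 14681 exon bases in GENCODE vM21, and for Bhlhe40 3272 against 4705. The part of these lengths in the order of the factors was not tested. The libraries held between 15623664 and 27579017 reads on the listed genes. Markers of microglia summed to between 4712 and 8943 RPKM in all 16 libraries, whereas the list with the next highest sum, monocytes and neutrophils, reached at most 28.6 RPKM, and 7 of its 11 genes, Ly6c2 and Ly6g included, were not listed. The markers of border macrophages summed to 2.48 to 5.97 RPKM in WT, 1.74 to 6.88 in TG Me-X04- and 2.76 to 20.8 in TG Me-X04+, and those of endothelium and mural cells to 2.51 to 13.6, 1.59 to 2.73 and 1.23 to 8.23 in the same order, with Cldn5, Rgs5 and Pdgfrb not listed. The part of these markers in the results was not tested. Within each group the libraries fell into 2 sets along the first principal component of their deviations from the group means (37.8% of the variance), a set A of 7 (WT replicates 1 to 3 and replicates 1 and 2 of each TG population) and a set B of 9 libraries. The study used 2 sequencers, and which library was run on which was not given in the sources used here. The share of reads on the 37 mitochondrial genes was 12.6% to 31.3% in WT, 20.6% to 44.8% in TG Me-X04- and 31.3% to 56.8% in TG Me-X04+, so it rose in the same order as several results below, and its part in them was not tested beyond the rescaling given there.

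**Figure D1:**
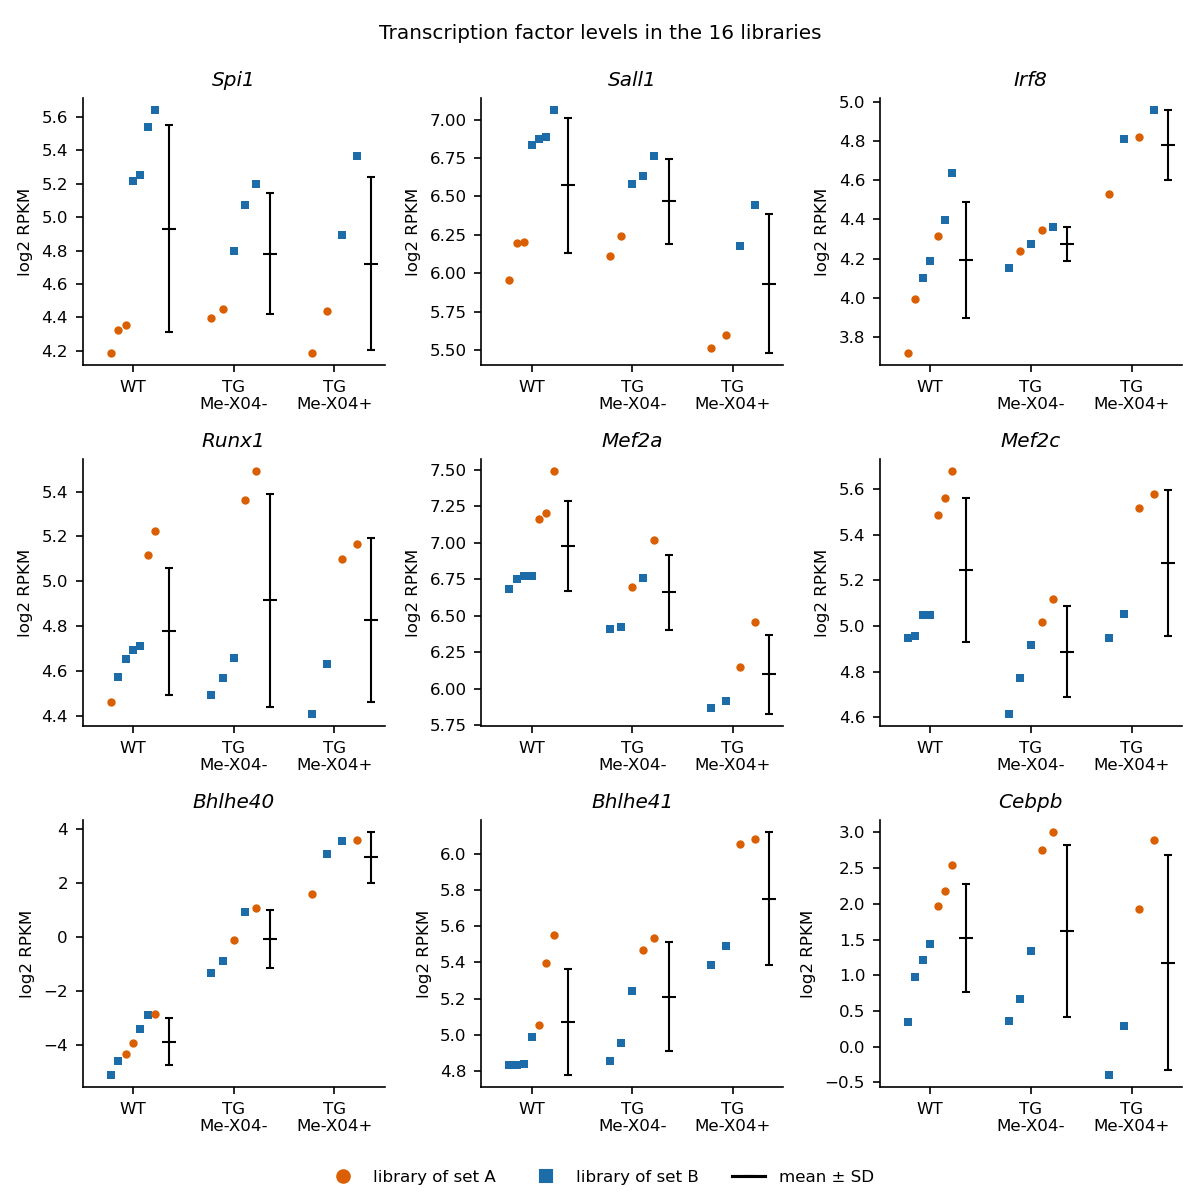
Log2 RPKM of each factor in every library, by group on the x axis, with circles for set A, squares for set B and a bar for the mean ± SD of the group. Bhlhe40 steps up from WT to TG Me-X04- to TG Me-X04+ without overlap, Mef2a of TG Me-X04+ lies below every WT library, and Spi1, Sall1, Mef2c, Bhlhe41 and Cebpb split by set within each group.

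In WT microglia 7 of the 9 factors were abundant, and their order rests on the gene lengths used. Mef2a had the highest mean level (6.98 ± 0.31 log2 RPKM, SD, n = 7), followed by Sall1 (6.57 ± 0.44), Mef2c (5.25 ± 0.32), Bhlhe41 (5.07 ± 0.29), Spi1 (4.93 ± 0.62), Runx1 (4.78 ± 0.28) and Irf8 (4.19 ± 0.30). These placed them between the 90.9th and 99.2th percentile of all listed genes. Mef2a and Sall1 exchanged places between libraries, Mef2a being higher in 3 of 7, and the ranges of Mef2c, Bhlhe41, Spi1, Runx1 and Irf8 overlapped each with the next. Cebpb stood far lower at 1.52 ± 0.76, near the middle of the listed genes (49.3th percentile). Bhlhe40 was close to absent at -3.86 ± 0.87, with 0 to 9 reads in a library and 24 reads over all 7.

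Mef2a and Sall1 kept the first and second rank in both TG groups, with Bhlhe41 in place of Mef2c behind them. In TG Me-X04-, Mef2a (6.66 ± 0.26, n = 5) and Sall1 (6.47 ± 0.28) again led, apart from the third factor, Bhlhe41 (5.21 ± 0.30). In TG Me-X04+, Mef2a (6.10 ± 0.27, n = 4), Sall1 (5.93 ± 0.45) and Bhlhe41 (5.75 ± 0.37) overlapped, and Bhlhe41 exceeded Sall1 in 2 of 4 libraries. Bhlhe40 ranked last in both other groups and next to last in TG Me-X04+ (2.95 ± 0.93), above Cebpb in 3 of 4 libraries.

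The 9 factors were held against the study's thresholds (adjusted p under 0.05 and a log2 fold change of at least 0.7 in either direction, by limma's moderated test with Benjamini-Hochberg adjustment over all 17951 genes). Between the TG populations 1 of 9 was called, Bhlhe40 (higher), where 5.49% of all genes were called (617 higher and 369 lower, or 309 higher and 721 lower when libraries were scaled by reads outside mitochondrial genes). Between TG Me-X04- and WT it was again Bhlhe40 (higher), against 0.201% of all genes. Between TG Me-X04+ and WT, Bhlhe40 was called higher and Mef2a lower, against 14.3% of all genes (1481 higher and 1081 lower, or 1227 and 1528 with that scaling). Groups did not overlap for 2, 1 and 2 factors in the same order of comparisons, where 7.93%, 1.06% and 10.5% of all genes did not. The median log2 fold change of the 9 was -0.06, 0.08 and 0.03, beside -0.09, 0.01 and -0.11 over all genes. The comparisons share groups and are not independent of each other.

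**Figure D2:**
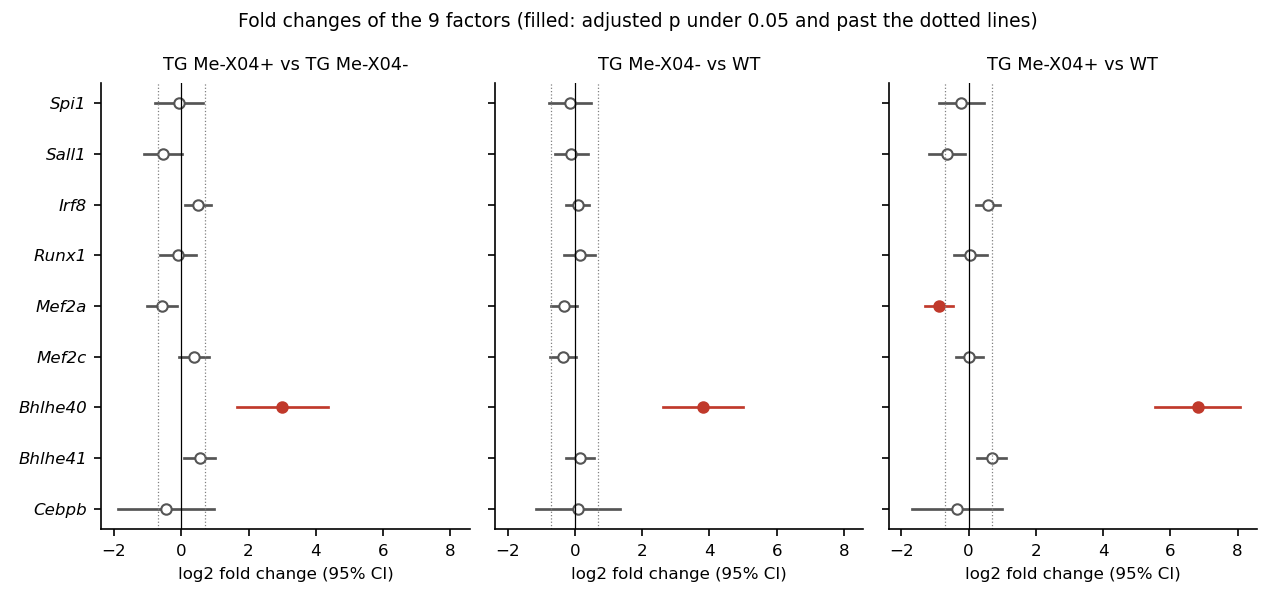
Log2 fold change of each factor (x axis, with its 95% confidence interval from limma) in the 3 comparisons, filled where called, with dotted lines at 0.7 on either side. Bhlhe40 lies far to the right in all 3, at 3.01, 3.80 and 6.81, and Mef2a is the other filled point, at -0.88 between TG Me-X04+ and WT.

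Bhlhe40 was the only factor called higher in any comparison. It stood at -5.10, -3.92 and -2.84 log2 RPKM as the lowest, median and highest of the WT libraries. In TG Me-X04- it stood at 1.09, -0.10, -1.34, 0.94 and -0.89, and in TG Me-X04+ at 1.59, 3.58, 3.09 and 3.54. Every TG library lay above every WT library, and every TG Me-X04+ library above every TG Me-X04- library, although TG Me-X04+ replicate 1 exceeded its own animal's TG Me-X04- library by 0.50 only, against 2.60 to 4.42 in the other 3 animals. The log2 fold change was 3.80 ± 0.56 (SE) from WT to TG Me-X04- (adjusted p = 0.00378, limma), 3.01 ± 0.64 between the TG populations (adjusted p = 0.0107, limma) and 6.81 ± 0.60 from WT to TG Me-X04+ (adjusted p = 1.19e-06, limma).

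Because WT held so few Bhlhe40 reads, the size of its rise from WT rests on small counts. Summed over libraries and divided by their effective sizes, Bhlhe40 stood at 0.164 CPM in WT, 3.54 in TG Me-X04- (403 reads) and 30.1 in TG Me-X04+ (2244 reads). The ratio was 21.5 between TG Me-X04- and WT (95% exact interval 14.3 to 34.0), 183 between TG Me-X04+ and WT (123 to 286) and 8.49 between the TG populations (7.63 to 9.46). These intervals cover counting error and not the spread between animals. The call between TG Me-X04- and WT was lost on the log2(RPKM + 1) scale (adjusted p = 0.432, limma), in limma voom on the recovered reads (adjusted p = 0.105) and when replicate numbers entered as a block (adjusted p = 0.0663, limma), and the log2 fold change was then 0.94, 4.50 and 3.41 in that order. The replicate numbers of WT are those of other mice.

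Bhlhe41, its closest relative, was already abundant in WT and differed far less. Its lowest, median and highest WT values were 4.83, 4.99 and 5.55 log2 RPKM. In TG Me-X04- it stood at 5.54, 5.47, 4.85, 5.24 and 4.96, and in TG Me-X04+ at 6.06, 6.08, 5.49 and 5.38. The groups overlapped, but within set A and within set B the TG Me-X04+ libraries lay above all others. The log2 fold change between TG Me-X04+ and WT was 0.68 ± 0.21 (adjusted p = 0.0352, limma), just under the 0.7 threshold. It passed without WT replicate 1 (0.74), WT replicate 2 (0.76), TG Me-X04+ replicate 3 (0.77) or TG Me-X04+ replicate 4 (0.81). The adjusted p was over 0.05 with the replicate block (0.52, adjusted p = 0.0526, limma), scaling by reads outside mitochondrial genes (0.52, adjusted p = 0.0667, limma) and quantile normalization (0.26, adjusted p = 0.382, limma). Between the TG populations it was 0.54 ± 0.22 (adjusted p = 0.190, limma), and between TG Me-X04- and WT 0.14 ± 0.20 (adjusted p = 0.999, limma).

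The gap between both relatives, taken within each library and so free of the scaling of libraries, narrowed from group to group. Bhlhe40 minus Bhlhe41 was -8.93 ± 0.78 (SD, n = 7) on the log2 scale in WT, -5.27 ± 0.85 (n = 5) in TG Me-X04- and -2.80 ± 1.15 (n = 4) in TG Me-X04+. The WT value rests on 0 to 9 Bhlhe40 reads in a library, to which a prior of 2 reads on average had been added. Its size and spread therefore depend on that prior. The difference between groups was 3.66 from WT to TG Me-X04- (exact permutation p = 0.00126, adjusted over the 9 pair tests 0.00909) and 6.13 from WT to TG Me-X04+ (exact permutation p = 0.00303, adjusted 0.00909). Between the TG populations it was 2.47 (exact permutation p = 0.0238, adjusted 0.0429), and TG Me-X04+ replicate 1, at -4.47, lay within the TG Me-X04- range. All permutation tests were two-sided on the absolute difference of means. That test takes the TG libraries as independent, though 4 mice gave both populations. Over these 4 mice the difference was 2.32 (exact sign-flip p = 0.25, where the smallest possible is 0.125), and in mouse 1 both populations stood alike, at -4.45 and -4.47. With any library but TG Me-X04+ replicate 1 left out, the difference lay between 2.15 and 2.71 and p between 0.0571 and 0.0857 (exact permutation), and without that replicate it was 3.02 (exact permutation p = 0.0179).

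The levels of the MEF2 factors lay closer together in TG Me-X04+ than in the other groups. Mef2a stood at 6.68, 6.77 and 7.49 log2 RPKM as the lowest, median and highest of WT. In TG Me-X04- it was 6.70, 7.02, 6.42, 6.41 and 6.76, and in TG Me-X04+ 6.46, 6.15, 5.91 and 5.87. All 4 TG Me-X04+ libraries lay below all 7 WT libraries, and TG Me-X04+ replicate 1 was the single one within the TG Me-X04- range. Mef2a fell by 0.88 ± 0.20 on the log2 scale between WT and TG Me-X04+ (adjusted p = 0.00561, limma). Against TG Me-X04- the difference was -0.56 ± 0.21 (adjusted p = 0.149, limma), and TG Me-X04- against WT gave -0.32 ± 0.19 (adjusted p = 0.999, limma). The fall was within both sets, with -0.98 in set A and -0.85 in set B between TG Me-X04+ and WT.

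Mef2c did not follow Mef2a. Its WT values ran from 4.95 through a median of 5.05 to 5.68 log2 RPKM. In TG Me-X04- they were 5.02, 5.12, 4.77, 4.61 and 4.92, and in TG Me-X04+ 5.58, 5.52, 4.95 and 5.05. No comparison was called: the log2 fold change was 0.03 between TG Me-X04+ and WT (95% interval -0.39 to 0.44), 0.39 between the TG populations (-0.06 to 0.83) and -0.36 between TG Me-X04- and WT (-0.75 to 0.03).

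Within each library Mef2a exceeded Mef2c at the gene lengths used, by 1.73 ± 0.07 (SD, n = 7) on the log2 scale in WT, 1.77 ± 0.11 (n = 5) in TG Me-X04- and 0.82 ± 0.14 (n = 4) in TG Me-X04+. The spread within groups was small and did not follow the sets. In contrast, Mef2c alone split by set in every group, and Mef2a alone in WT and TG Me-X04+. The lowest TG Me-X04- library stood at 1.65 and the lowest WT library at 1.60, above the highest TG Me-X04+ library at 0.97. The drop was -0.95 against TG Me-X04- (exact permutation p = 0.00794, adjusted 0.0179) and -0.91 against WT (exact permutation p = 0.00303, adjusted 0.00909), and both p-values are the smallest these group sizes allow. TG Me-X04- and WT differed by 0.04 (exact permutation p = 0.418, adjusted 0.418). Over the 4 animals with both populations the drop was -0.93, where the smallest two-sided sign-flip p is 0.125 (exact permutation), as found.

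**Figure D3:**
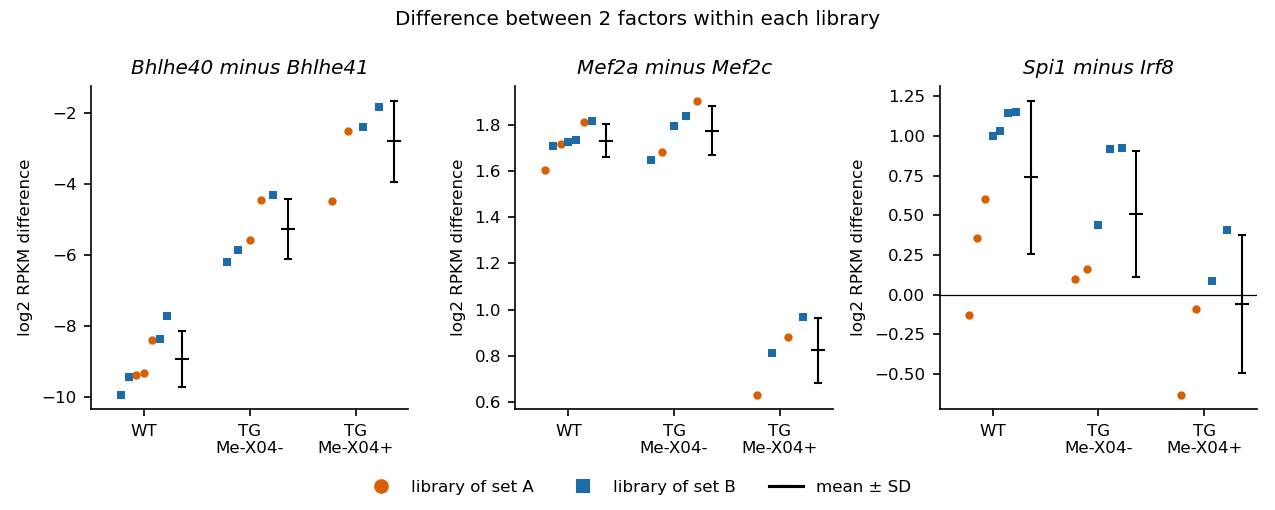
Difference in log2 RPKM between a pair of factors within each library, by group, with circles for set A, squares for set B and bars for the mean ± SD. Mef2a minus Mef2c lies at 1.60 or above in every WT and TG Me-X04- library and at 0.97 or below in TG Me-X04+, while Spi1 minus Irf8 splits by set within each group.

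Sall1 had its lowest mean level in TG Me-X04+, but its groups overlapped. WT ran from 5.96 through a median of 6.84 to 7.06 log2 RPKM. TG Me-X04- stood at 6.11, 6.24, 6.63, 6.77 and 6.58, and TG Me-X04+ at 5.51, 5.60, 6.18 and 6.44. Set A libraries were lower than set B libraries in every group, by 0.48 to 0.80, and within each set the TG Me-X04+ libraries lay below all WT and TG Me-X04- libraries. On the deposited values without a term for the sets, the difference was -0.64 ± 0.25 against WT (adjusted p = 0.0998, limma) and -0.54 ± 0.27 against TG Me-X04- (adjusted p = 0.301, limma), and neither was called. Between TG Me-X04- and WT it was -0.11 ± 0.23 (adjusted p = 0.999, limma). With quantile normalization and no such term, Sall1 was called lower in TG Me-X04+ than in WT, but was not called against TG Me-X04-.

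Spi1, the factor at the head of the myeloid program, did not pass the test in any comparison on the deposited values. Its WT values ran from 4.19 through a median of 5.22 to 5.64 log2 RPKM, those of TG Me-X04- from 4.40 to 5.20 and those of TG Me-X04+ from 4.19 to 5.36. Libraries of set B exceeded those of set A in every group, by 0.60 to 1.12, which was more than any difference between groups. The log2 fold change was -0.06 between the TG populations (95% interval -0.77 to 0.64), -0.15 between TG Me-X04- and WT (-0.76 to 0.47) and -0.21 between TG Me-X04+ and WT (-0.87 to 0.45).

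Irf8, the partner of PU.1, had its highest mean level in TG Me-X04+. WT ran from 3.72 through a median of 4.19 to 4.64 log2 RPKM. TG Me-X04- lay close together at 4.24, 4.35, 4.28, 4.15 and 4.36, and TG Me-X04+ at 4.53, 4.82, 4.81 and 4.96, above every TG Me-X04- library and overlapping WT by its replicate 7. The log2 fold change was 0.59 ± 0.17 against WT (adjusted p = 0.0294, limma), which is below the fold threshold and reached it with the replicate block (0.73, adjusted p = 0.0172, limma). It was 0.42 with scaling by reads outside mitochondrial genes (adjusted p = 0.135, limma) and 0.31 with quantile normalization (adjusted p = 0.374, limma). Against TG Me-X04- it was 0.50 ± 0.19 (adjusted p = 0.134, limma). Reads of Irf8 share no exon bases with the readthrough gene Gm20388 that spans it. Spi1 minus Irf8 within a library was 0.74 ± 0.48 (n = 7) in WT, 0.51 ± 0.40 (n = 5) in TG Me-X04- and -0.06 ± 0.43 (n = 4) in TG Me-X04+. It differed by -0.80 between TG Me-X04+ and WT (exact permutation p = 0.0333, adjusted 0.05), by -0.56 between the TG populations (exact permutation p = 0.0952, adjusted 0.122) and by -0.23 between TG Me-X04- and WT (exact permutation p = 0.391, adjusted 0.418). The first p was 0.0571 to 0.1 (exact permutation) without any 1 of TG Me-X04+ replicates 1, 2 and 3 and WT replicates 4, 5, 6 and 7, and 0.0143 to 0.0476 without any 1 of the others. Without TG Me-X04+ replicate 4 the difference between the TG populations was -0.72 (exact permutation p = 0.0357).

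Runx1 and Cebpb were not called in any comparison. Runx1 ran from 4.46 to 5.22 log2 RPKM in WT, from 4.49 to 5.49 in TG Me-X04- and from 4.41 to 5.17 in TG Me-X04+, with log2 fold changes of -0.09, 0.14 and 0.05 for the TG populations, TG Me-X04- against WT and TG Me-X04+ against WT. Cebpb varied widely between libraries of a group, with the largest SD of the 9 in both TG groups, from 0.35 to 2.54 in WT, 0.36 to 3.00 in TG Me-X04- and -0.39 to 2.89 in TG Me-X04+, at 24 to 238 reads. All its set A libraries exceeded all its set B libraries within each group, by 1.23 to 2.46 on average. Its log2 fold change between the TG populations was -0.45 (95% interval -1.88 to 0.99), with an SE of 0.68 that became 0.34 with a term for the sets (-0.63, adjusted p = 0.259, limma). The Cebpb level is also uncertain because 312 of its 1504 exon bases overlap the opposite-strand gene Tmem189 (GENCODE vM21), and strand use in counting is not stated. For Mef2a 302 of 14681 exon bases overlap Lysmd4, and for Runx1 106 of 12025 overlap the antisense gene Gm26626. For Bhlhe41 1280 of 6720 exon bases overlap the opposite-strand gene Gm43909, and for Bhlhe40 118 of 4705 overlap the antisense gene 0610040F04Rik, neither of which is listed in the table.

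Within animals, where both TG populations of a mouse were compared, 7 of the 9 factors had the same sign in all 4 animals, as did 28.2% of all genes. Irf8, Mef2c, Bhlhe40 and Bhlhe41 were higher in TG Me-X04+ and Sall1, Mef2a and Cebpb lower in 4 of 4, while Spi1 was higher in 2 of 4 and Runx1 in 1 of 4. The differences ran from 0.29 to 0.80 on the log2 scale for Irf8, from 0.18 to 0.56 for Mef2c, from 0.14 to 0.63 for Bhlhe41, from -0.64 to -0.32 for Sall1, from -0.87 to -0.24 for Mef2a and from -1.73 to -0.11 for Cebpb. With 4 animals no factor alone can reach a two-sided sign-flip p under 0.125.

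When the 2 sets of libraries were given a term in the fit, the spread around the group means of most factors shrank and more of them passed an adjusted p of 0.05. Between the TG populations these were 6 of 9, where 13.5% of all genes passed without a fold threshold. Mef2a (-0.61 ± 0.12, adjusted p = 0.00273, limma) and Sall1 (-0.47 ± 0.11, adjusted p = 0.00997, limma) were lower. Bhlhe40 (2.99 ± 0.64, adjusted p = 0.00496, limma), Bhlhe41 (0.49 ± 0.12, adjusted p = 0.0115, limma), Irf8 (0.52 ± 0.15, adjusted p = 0.0302, limma) and Mef2c (0.34 ± 0.11, adjusted p = 0.0468, limma) were higher. The same 6 lay apart in both sets in the same direction, where 17.5% of all genes did. The fold changes other than that of Bhlhe40 stayed under 0.7.

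Against WT the term gave 5 of 9 factors for TG Me-X04+, where 25.3% of all genes passed (14.8% without the term, and 4 of 9 factors). Mef2a (-0.91 ± 0.11, adjusted p = 1.37e-05, limma) and Sall1 (-0.59 ± 0.10, adjusted p = 0.000436, limma) were lower, and Bhlhe40, Bhlhe41 (0.65 ± 0.11, adjusted p = 0.000377, limma) and Irf8 (0.60 ± 0.14, adjusted p = 0.00477, limma) higher. The same 5 lay apart in both sets, as did 20.1% of all genes. For TG Me-X04- against WT the term gave Bhlhe40 alone, where 0.624% of all genes passed. The sets were found in these data, so this fit is not independent of them.

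Between the TG populations the size of the differences of all 5 of Irf8, Bhlhe41, Mef2c, Mef2a and Sall1 depended on how libraries were scaled. With the other scalings the rises of Irf8, Bhlhe41 and Mef2c became smaller and the falls of Mef2a and Sall1 larger. Irf8, Bhlhe41, Mef2a and Sall1 kept their sign in every fit run, and Mef2c was -0.025 with the set term and quantile normalization. Scaling by the reads outside mitochondrial genes moved the median of all genes between the TG populations from -0.09 to -0.37. On that scale Irf8 stood at 0.23, Bhlhe41 at 0.27 and Mef2c at 0.11, while Sall1 stood at -0.81 and Mef2a at -0.84 (adjusted p = 0.0196, limma). Quantile normalization gave 0.19, 0.05 and 0.00 for the first 3, and -1.09 for both Sall1 (adjusted p = 0.0735, limma) and Mef2a (adjusted p = 0.00328, limma). With the set term and either of these scalings, chosen after seeing the data, Bhlhe40, Mef2a and Sall1 were called, and Irf8, Bhlhe41 and Mef2c did not pass. Against WT, 5 factors passed an adjusted p of 0.05 in TG Me-X04+ in each of these fits. Bhlhe40 (higher), Mef2a and Sall1 (lower) were among them in both, with Irf8 (0.45) and Bhlhe41 (0.50) under the first scaling and Spi1 (-0.45) and Mef2c (-0.35) under quantile normalization. Bhlhe40 kept a log2 fold change of 2.73 and 3.17 under these scalings, and the within-library differences between factors are the same under any scaling by a single factor per library.

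**Figure D4:**
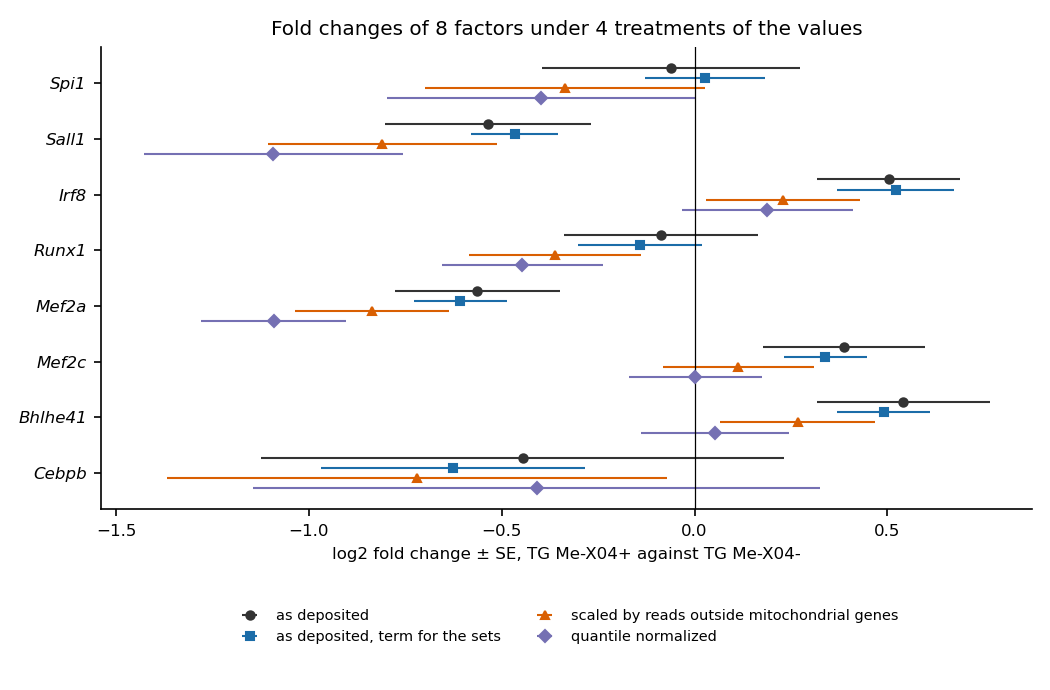
Log2 fold change ± SE (x axis, TG Me-X04+ against TG Me-X04-) of the 8 factors other than Bhlhe40 under 4 treatments of the values. Mef2a and Sall1 lie left of 0 under all 4. When libraries are scaled by reads outside mitochondrial genes or quantile normalized, Mef2a and Sall1 move further left, while the points of Irf8, Mef2c and Bhlhe41 move toward 0.

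Relatives of the 9 factors, from a list of 24 genes of the same families, were listed in the table in 16 cases. Between the TG populations 1 of 16 was called, and between TG Me-X04+ and WT 2 of 16, against 5.49% and 14.3% of all genes. Irf4, an interferon regulatory factor that also partners PU.1, was lower in TG Me-X04+ both against its TG counterpart (-1.56 ± 0.44, adjusted p = 0.0472, limma) and against WT (-2.21 ± 0.41, adjusted p = 0.00129, limma). Cebpd, a C/EBP gene, was lower than in WT (-1.24 ± 0.40, adjusted p = 0.0473, limma). Over the fits in which they were tested, these 3 calls held in 12 of 27, 28 of 28 and 15 of 29. The other 15 and 14 relatives were not called in these comparisons, and none of the 16 in TG Me-X04- against WT. Their median log2 fold change was -0.14, -0.09 and -0.17, beside -0.09, 0.01 and -0.11 over all genes.

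Among 50 listed genes for other microglia and macrophage transcription factors, 4 were called higher and 1 lower between the TG populations, where 5.49% of all genes were called. The higher ones were Egr2 (2.11 ± 0.54) and Ets2 (1.43), immediate-early and ETS-family factors, Hif1a (1.91 ± 0.24), the oxygen-sensing factor, and Atf3 (1.84), a stress-response factor. Against WT, where 14.3% of all genes were called, 6 were called higher and 5 lower in TG Me-X04+, led by Egr2 (4.64), Atf3 (2.94), Egr1 (2.90) and Hif1a (2.26). The gene called lower between the TG populations was Maf (-1.15 ± 0.26), a large MAF factor, and those lower against WT were Etv1 (-1.75), Maf (-1.70), Tfeb (-1.42), Fli1 (-0.85) and Tcf4 (-0.72), named after their values were seen. Egr2 alone was called between TG Me-X04- and WT (2.53 ± 0.48, adjusted p = 0.0343, limma). Under the scaling by reads outside mitochondrial genes the split between the TG populations turned to 1 higher and 4 lower, with Hif1a keeping its direction and its call in every fit run. The calls of Egr2, Atf3 and Ets2 between the TG populations held in 18, 22 and 14 of 27 fits, that of Egr2 between TG Me-X04- and WT in 16 of 29, and that of Tcf4 in 16 of 29.

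Genes that these factors are known to control were followed as lists. Of 13 activation genes that Sall1 or Bhlhe40 and Bhlhe41 hold low in mouse microglia or macrophages, 9 were called higher between the TG populations, 6 in TG Me-X04- than in WT and 10 in TG Me-X04+ than in WT, and none lower. Their median log2 fold change was 2.75, 2.19 and 5.69, beside the all-gene medians of -0.09, 0.01 and -0.11. In the same order 5.49%, 0.201% and 14.3% of all genes were called. Cst7, a cystatin of activated microglia, rose by 4.16 ± 0.45 between the TG populations, Itgax, the CD11c integrin chain, by 3.77 ± 0.42, Spp1, osteopontin, by 3.70 ± 0.63 and Lpl, lipoprotein lipase, by 3.69 ± 0.81. Between WT and TG Me-X04- the largest were Cst7 (4.02), Spp1 (3.33), Axl, a receptor kinase for dying cells (3.10), and Clec7a, a glucan receptor (2.98). With quantile normalization 1 gene of the list was called lower in both comparisons of TG Me-X04+, beside 8 and 10 called higher. This list was chosen with results of these data known, so its direction is no independent evidence.

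Of 15 listed homeostatic microglia genes, 3 were called lower between the TG populations and none higher, and 5 were called lower in TG Me-X04+ against WT. Over all genes 5.49% and 14.3% were called in these comparisons, in either direction. The largest falls between the TG populations were in Crybb1, a crystallin gene expressed by microglia (-2.53 ± 0.34), Tmem119, a microglial membrane protein (-1.58 ± 0.32), and Slc2a5, a fructose transporter (-0.87). Against WT, P2ry13 (-1.02) and P2ry12 (-0.97), purinergic receptors, were also lower. None of the 15 was called between TG Me-X04- and WT (limma), with a median of -0.08. The median was -0.35 between the TG populations and -0.48 against WT for TG Me-X04+, and with quantile normalization 8 and 11 of the 15 were called lower, none higher.

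Among 10 myeloid genes that depend on PU.1, Cybb, the catalytic subunit of the phagocyte oxidase, was called higher between the TG populations (2.24 ± 0.57, adjusted p = 0.0283, limma), a call that held in 20 of 27 fits. Cybb (3.76 ± 0.53), Tyrobp, the signalling adaptor of TREM2 (2.24 ± 0.61), and Itgb2, an integrin chain (1.00 ± 0.26), were called higher than in WT, and none of the 10 lower. Their median log2 fold change was 0.57 in both comparisons, and fell to 0.01 and 0.15 under quantile normalization. Over all genes 5.49% and 14.3% were called in these comparisons, in either direction. Of 12 listed genes of the CSF1 and TGF-β signals that maintain microglia, Csf1, the ligand of the receptor on which microglia depend, rose in every comparison, by 1.69 ± 0.25 from WT to TG Me-X04-, 3.08 ± 0.29 between the TG populations and 4.78 ± 0.27 from WT to TG Me-X04+. Tgfbr2, a TGF-β receptor, was higher in TG Me-X04+ by 1.06 ± 0.27 between the TG populations and by 1.14 ± 0.25 against WT, and the first of these calls held in 17 of 28 fits.

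The genes whose levels most closely tracked each factor over the 16 libraries differed between factors. For Bhlhe40 they were Axl (Pearson r = 0.974), Lgals3bp (0.965) and Clec7a (0.965), all of which stepped up from WT to TG Me-X04- to TG Me-X04+ in mean level. For Mef2a they were Slc40a1 (0.964), Tspan18 (0.957) and Maf (0.952), which stepped down. For Bhlhe41 they were Tpd52, Gm16409 and St8sia6 (0.959 to 0.942), for Sall1 Zfp710, Adap2os and Zbtb7a (0.964 to 0.956), and for Irf8 Itgb3, Atp6v1b2 and Gm8203 (0.905 to 0.897). For Spi1 they were Gm14150, Coro1a and Gm17087 (0.960 to 0.938), for Runx1 Xylb, Ptch1 and Tmcc1 (0.927 to 0.894), for Mef2c Atrx, Capn7 and Gm8991 (0.947 to 0.927), and for Cebpb Abhd17b, Ldhb and Kctd12b (0.961 to 0.928). The 16 points share their groups and their sets, so these correlations describe both and carry no test.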

How the data were processed

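RNA-seq of 16 microglia libraries in 3 groups was used, 1 column per library. Per the submitters' processing notes and the study's methods, reads were trimmed with Trim Galore 0.4.4, aligned to GRCm38 with STAR 2.5.4b (reads with several positions kept), counted on GENCODE genes with featureCounts and scaled with edgeR 3.24.3, and the authors deposited the log2 RPKM values with a small prior added to the reads. Whether counting used strand is not given in the sources used here. Values of 1 library rise in equal steps, and whole reads were recovered for 100% of the values (within 0.01). Since the unit is log2, the edgeR test was not run, and limma 3.58.1 (R 4.3.3, moderated test with a variance trend, 3 groups in 1 fit, Benjamini-Hochberg over 17951 genes) was used. Depth was 15623664 to 27579017 reads on listed genes. The labels number the mice, so each library was taken as 1 mouse, or as 1 population of a mouse in TG.

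Pairs of factors were compared by exact permutation tests over libraries (scipy 1.17.1), adjusted over 9 tests. Overlaps between genes were taken from GENCODE vM21 on GRCm38, and start regions and motif shares from RefSeq. Named genes were the 9 factors, at most 4 called genes with the largest change in each list and comparison (5 transcription factors lower in TG Me-X04+ were named beyond these, after their values were seen), and the 3 genes most correlated with each factor. The members and lists were chosen with earlier results of these data known. Same-numbered TG libraries share an animal by their labels, and their deviations from group means correlated at 0.292 to 0.329 in 4 pairs, against 0.221 to 0.332 for other numbers of the same set. The alternatives are other scalings, pseudocounts, filters, variance models, library weights, a replicate block, a set term, voom and leaving out each library. The fits with the set term and another scaling, and the block over TG libraries alone, were chosen after seeing the data. The test script was tested on simulated data.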

Additional observations from a re-analysis of the deposited data

How the results depend on the processing

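Of the log2 fold changes of single factors under the alternatives, 685 kept their direction and side of the threshold, 16 passed it newly, 3 no longer passed and 43 changed sign. The number of factors called between the TG populations was 1, and became 2 with quantile normalization or with scaling by reads outside mitochondrial genes, 3 with the set term and either scaling, and 0 with a mean log2 RPKM of at least 0 or at least 2, where Bhlhe40 was not tested. For TG Me-X04- against WT it was 1, and became 0 with log2(RPKM + 1), with either filter, with the replicate block and with limma voom on recovered reads. For TG Me-X04+ against WT it was 2, and became 1 with either filter, 4 with no fold threshold, 3 with quantile normalization, with the replicate block and with the set term and either scaling, and 2 to 3 when 1 library was left out. The replicate block changed no other call than those of Bhlhe40 and Irf8 given beside them.

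Bhlhe40 minus Bhlhe41 between the TG populations was 2.32 over same-numbered animals as a replicate block (exact sign-flip p = 0.25) and 2.15 to 3.02 without any 1 library. Mef2a minus Mef2c was -0.93 with the replicate block (exact p = 0.125). Spi1 minus Irf8 was -0.50 within the sets (exact permutation p = 0.0333) and -0.72 to -0.37 without any 1 library, and against WT -0.95 to -0.60.

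Changes of sign were confined to log2 fold changes of factors that no setting called in that comparison, and the cause was not tested. Between the TG populations Spi1 became 0.013 with the replicate block, 0.027 with the set term and -0.28 to 0.12 without any 1 library, Runx1 -0.20 to 0.056 and Cebpb -1.02 to 0.078 without any 1 library, and Mef2c -0.025 with the set term and quantile normalization. For TG Me-X04- against WT the replicate block gave 0.12 for Spi1, 0.056 for Sall1 and -0.25 for Cebpb, scaling by reads outside mitochondrial genes gave 0.0086 for Sall1, arrayWeights gave -0.072 for Irf8, and leaving out 1 library gave -0.0062 to 0.24 for Runx1 and -0.25 to 0.42 for Cebpb. For TG Me-X04+ against WT the replicate block gave 0.13 for Spi1, -0.046 for Runx1 and -0.13 for Mef2c. Runx1 was -0.022 with arrayWeights, -0.24 with quantile normalization, -0.11 with scaling by reads outside mitochondrial genes, -0.14 and -0.26 with the set term and these scalings, and -0.064 to 0.19 without any 1 library. Mef2c was -0.33 with quantile normalization, -0.13 with the other scaling, -0.0065 with the set term, -0.16 and -0.35 with the set term and the scalings, and -0.073 to 0.14 without any 1 library, where Cebpb was -0.92 to 0.18.

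Over all genes, 986 were called between the TG populations, against 2142 with the set term, 470 with the 2 groups alone, 655 with a mean of at least 2, 2725 and 1955 with the set term and scaling by reads outside mitochondrial genes or quantile normalization, 552 without TG Me-X04- replicate 5 and 624 without TG Me-X04+ replicate 2. For TG Me-X04- against WT 36 were called, against 175 with arrayWeights, 13 with log2(RPKM + 1), 19 and 16 with the filters, 18 with the block, 101, 157 and 143 with the set term alone and with the scalings, and 19 without TG Me-X04- replicate 1 and 23 without its replicate 3 or 4. For TG Me-X04+ against WT 2562 were called, against 3919, 4350 and 3892 with the set term alone and with the scalings, and 1419 with a mean of at least 2. The few reads of Bhlhe40 in WT and of Cebpb in all groups limit the precision of their values.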
